A study of Mus musculus with 2 samples.

Results

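The 10 genes described here encode the regulatory proteins of the actin filament in muscle: the troponin genes Tnnc1, Tnnc2, Tnni1, Tnni2, Tnnt1 and Tnnt3 and the tropomyosin genes Tpm1, Tpm2, Tpm3 and Tpm4. They were chosen by gene name, as members of these families with reads in the data, out of 18179 genes with at least 1 read in either library. All 10 had reads in replicate 1 and 9 had reads in replicate 2. The read counts of the genes were known when they were chosen, so levels and ratios of genes are given as a description, with no test.

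Tropomyosin is a coiled coil that lies along the actin filament, and in striated muscle the troponin complex sits on it: troponin C binds calcium, troponin I holds the filament off, and troponin T anchors the complex to tropomyosin. Skeletal muscle fibres of the slow and fast types use separate genes for each troponin subunit (Tnnc1, Tnni1 and Tnnt1 in slow fibres, Tnnc2, Tnni2 and Tnnt3 in fast fibres). Tropomyosin genes instead change their product by the choice of first, internal and last exons, so that Tpm1, Tpm2 and Tpm3 each give a form of striated muscle and forms of smooth muscle or of other cells, while Tpm4 gives mainly forms of non-muscle cells.

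Both libraries are long-read RNA libraries of adrenal gland tissue from female mice aged 10 days, with no treatment given in the labels. The strain was B6CASTF1/J (named for a first-generation cross of the B6 and CAST strains). The libraries form 1 group (replicate 1 and replicate 2). The library texts name animal 03 for both replicates, the sample texts name animal 03 for replicate 1 and animal 04 for replicate 2, and the donor entry is the same for both. The labels thus do not settle the number of animals (1 or 2), and the SD over the libraries (n = 2) may be technical. No contrast between conditions exists, so each comparison sets replicate 1 against replicate 2.

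Replicate 1 held 593165 reads and replicate 2 held 772154 reads after the ERCC spike-ins were left out, and levels are CPM (counts scaled to these totals). A long read was taken as 1 molecule, so CPM was not divided by transcript length. The limit that a count of 0 allows (3 reads) was 5.06 CPM in replicate 1 and 3.89 CPM in replicate 2, and this limit and all intervals (95%) cover counting error only. The labelled tissue was borne out by its markers: 5 adrenal cortex genes (Cyp11a1, Cyp11b1, Cyp21a1, Star and Hsd3b1) summed to 16641 and 20497 CPM in replicates 1 and 2, and all 5 were within 2-fold between the libraries. The 10 genes together held 2421 reads (4081 CPM) in replicate 1 and 1379 reads (1786 CPM) in replicate 2, a mean of 2934 ± 1623 CPM (SD, n = 2).

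The exons on which most of what follows turns are short alternative cassettes, of which a transcript normally carries 1 of a pair. They are shown because the counts of transcript forms rest on them. Sequences are those of GENCODE M21 transcripts on mm10, 5′ to 3′ on the strand of the gene, and capitals mark the bases at which an exon differs from its partner. The first pair belongs to Tnnt3 (chr7:142513665-142513705 and chr7:142514326-142514366, plus strand) and codes for a stretch near the end of fast troponin T.
Tnnt3 upstream exon: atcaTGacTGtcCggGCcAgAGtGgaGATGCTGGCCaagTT
Tnnt3 downstream exon: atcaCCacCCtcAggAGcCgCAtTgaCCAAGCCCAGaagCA
These exons of 41 bases were identical at 18 positions (43.9%). The next pairs are exons 6a and 6b of Tpm1 (chr9:67032466-67032541 and chr9:67031951-67032026, minus strand), Tpm2 (chr4:43519003-43519078 and chr4:43518644-43518719, minus strand) and Tpm3 (chr3:90088401-90088476 and chr3:90089048-90089123, plus strand), all of 76 bases and all coding.
Tpm1 exon 6a: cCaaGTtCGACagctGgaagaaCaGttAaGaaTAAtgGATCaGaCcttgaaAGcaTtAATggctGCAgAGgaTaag
Tpm1 exon 6b: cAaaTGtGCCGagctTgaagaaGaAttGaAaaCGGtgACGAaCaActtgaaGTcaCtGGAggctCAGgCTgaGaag
Tpm2 exon 6a: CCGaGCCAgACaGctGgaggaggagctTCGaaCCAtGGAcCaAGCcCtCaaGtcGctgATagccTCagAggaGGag
Tpm2 exon 6b: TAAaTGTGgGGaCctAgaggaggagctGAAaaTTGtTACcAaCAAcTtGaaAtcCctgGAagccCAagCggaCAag
Tpm3 exon 6a: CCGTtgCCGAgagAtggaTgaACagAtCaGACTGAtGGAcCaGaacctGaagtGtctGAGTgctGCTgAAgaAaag
Tpm3 exon 6b: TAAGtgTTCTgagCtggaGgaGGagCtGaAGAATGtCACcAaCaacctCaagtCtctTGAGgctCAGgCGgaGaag
Exon 6a was identical to exon 6b of its own gene at 43 of 76 positions in Tpm1, 41 in Tpm2 and 39 in Tpm3. The 6b exons of different genes were closer to each other (73.7 to 76.3% identity over the 3 pairs of genes) than the 6a exons of different genes (61.8 to 65.8%).

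Troponin C is the calcium sensor of the filament. Tnnc2, its fast muscle gene (ENSMUSG00000017300.9, chr2:164777161-164779967, minus strand), was the most abundant of the 10 genes, with 937 reads (1580 CPM) in replicate 1 and 428 reads (554 CPM) in replicate 2, 2.85-fold higher in replicate 1 (interval 2.54 to 3.2). Tnnc1, the gene of slow muscle and heart (ENSMUSG00000091898.8, chr14:31208312-31211729, plus strand), had 42 reads (70.8 CPM) in replicate 1 and 0 reads in replicate 2, which allows up to 3.89 CPM, so that it was at least 18.2-fold higher in replicate 1 with the 42 reads taken as exact (exact lower limit of the ratio 14.2). Both genes were therefore higher in replicate 1, and 1 of them was seen in that library alone. Each was read almost wholly as 1 annotated transcript of 6 exons: Tnnc2-201 held 890 of 937 reads (95%) in replicate 1 and 412 of 428 (96.3%) in replicate 2, and Tnnc1-202 held 40 of the 42 reads.

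Troponin I is the inhibitory subunit. Tnni2, its fast gene (ENSMUSG00000031097.15, chr7:142441808-142444410, plus strand), had 130 reads (219 CPM) in replicate 1 and 82 reads (106 CPM) in replicate 2, 2.06-fold higher in replicate 1 (1.55 to 2.76). Tnni1, its slow gene (ENSMUSG00000026418.16, chr1:135779434-135810989, plus strand), had 21 reads (35.4 CPM) in replicate 1 and 2 reads (2.59 CPM) in replicate 2, a ratio of 13.7 (3.34 to 120). Troponin T is the subunit that binds tropomyosin. Tnnt3, the fast gene (ENSMUSG00000061723.18, chr7:142498836-142516009, plus strand), had 58 reads (97.8 CPM) in replicate 1 and 24 reads (31.1 CPM) in replicate 2, a ratio of 3.15 (1.92 to 5.29). Tnnt1, the slow gene (ENSMUSG00000064179.13, chr7:4504570-4516382, minus strand), had 94 reads (158 CPM) in replicate 1 and 10 reads (13 CPM) in replicate 2, a ratio of 12.2 (6.37 to 26.3). In both subunits the ratio of the slow gene was the larger, and the intervals of the slow and fast gene do not overlap.

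The slow and fast genes of a subunit encode alternatives for the same place in the complex, so their shares can be set side by side. Slow genes made up 157 of 1282 troponin reads (12.2%, Clopper-Pearson interval 10.5 to 14.2) in replicate 1 and 12 of 546 (2.2%, 1.14 to 3.81) in replicate 2. By subunit the slow share was 4.29% in replicate 1 and 0% (0 of 428 reads, at most 0.858%) in replicate 2 for troponin C, 13.9% in replicate 1 and 2.38% in replicate 2 for troponin I, and 61.8% in replicate 1 and 29.4% in replicate 2 for troponin T. Within 1 library the subunits thus gave different slow shares, lowest for troponin C and highest for troponin T. In replicate 2 the intervals of troponin C (0 to 0.858%) and troponin I (0.29 to 8.34%) overlap. For troponin T most slow reads were short: 78 of 92 spliced Tnnt1 reads in replicate 1 and 7 of 10 in replicate 2 had 4 or fewer exons, and 12 and 2 had 11 or more. Its fast reads were few: Tnnt3 had 58 reads in replicate 1 and 24 in replicate 2, against 937 and 428 of Tnnc2. Of these Tnnt3 reads, 17 in replicate 1 and 3 in replicate 2 were unspliced. The slow share of troponin T thus rests on a low fast count. The read counts of these genes chose them, so the shares are a description of the 2 libraries.

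**Figure D1:**
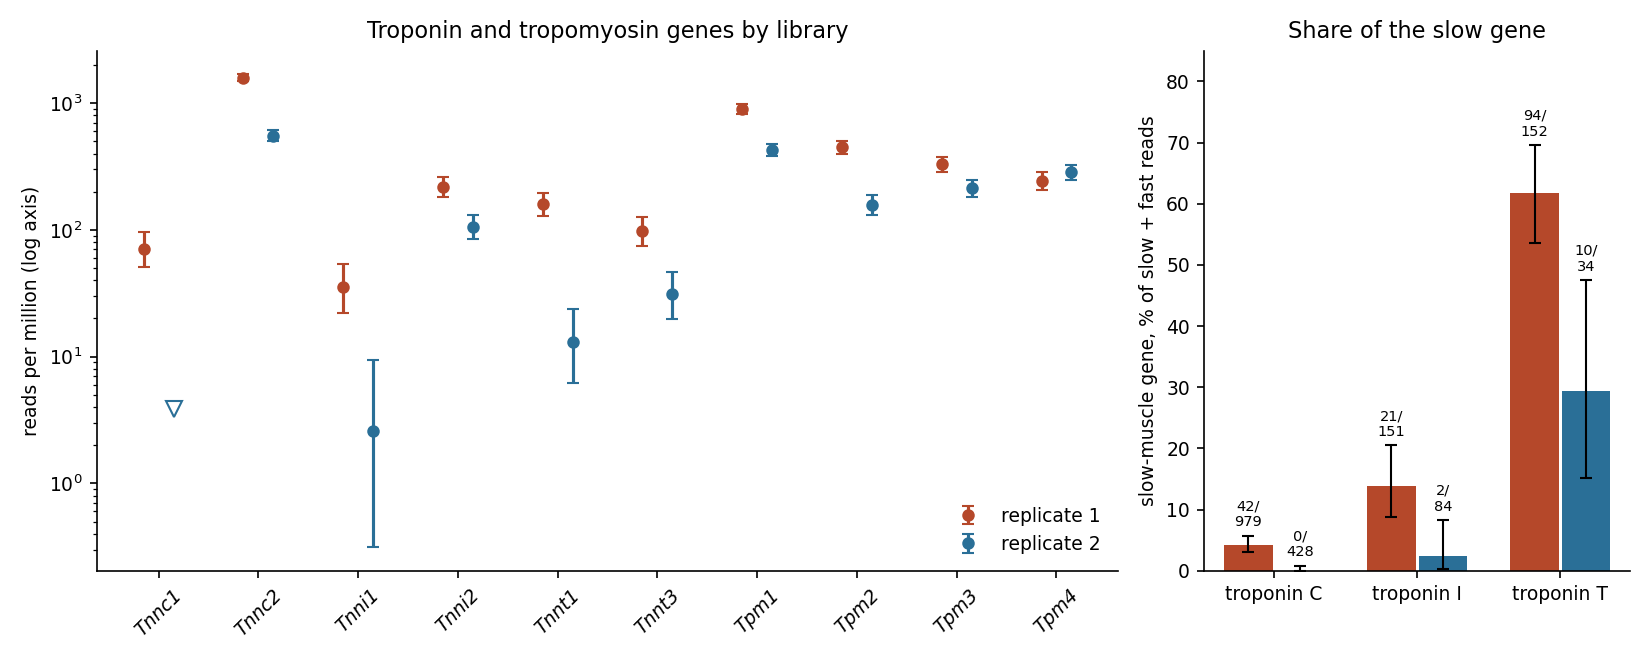
Left, level of each gene in CPM on a log axis, replicate 1 left of replicate 2, with exact 95% counting intervals; the open triangle is the limit of 3.89 CPM for Tnnc1, which had 0 reads in replicate 2. Right, reads of the slow gene as a percentage of slow and fast reads of each troponin subunit, with Clopper-Pearson intervals and the read numbers above the bars; replicate 1 is above replicate 2 in all 3 subunits.

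Among the tropomyosins, Tpm1 (ENSMUSG00000032366.15, chr9:67022590-67049406, minus strand) had 535 reads (902 CPM) in replicate 1 and 328 reads (425 CPM) in replicate 2, 2.12-fold higher in replicate 1 (1.85 to 2.44). Tpm2 (ENSMUSG00000028464.16, chr4:43514711-43523765, minus strand) had 265 reads (447 CPM) in replicate 1 and 121 reads (157 CPM) in replicate 2, a ratio of 2.85 (2.29 to 3.56). Tpm3 (ENSMUSG00000027940.18, chr3:90072649-90100902, plus strand) had 195 reads (329 CPM) in replicate 1 and 164 reads (212 CPM) in replicate 2, a ratio of 1.55 (1.25 to 1.92). Tpm4 (ENSMUSG00000031799.9, chr8:72134975-72153142, plus strand), the tropomyosin of non-muscle cells, had 144 reads (243 CPM) in replicate 1 and 220 reads (285 CPM) in replicate 2, a ratio of 0.852 (0.686 to 1.06). Tpm4 was the only gene of the 10 with the lower value in replicate 1, and its interval includes equal levels. It was read mainly as Tpm4-201 (8 exons, 248 codons), with 125 reads in replicate 1 and 210 in replicate 2.

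In the order of levels, Tnnc2 and Tpm1 came first in both libraries, and the next was Tpm2 in replicate 1 and Tpm4 in replicate 2. Over the libraries Tnnc2 averaged 1067 ± 725 CPM and Tpm1 663 ± 337 CPM, and Tpm2, Tpm3 and Tpm4 averaged 302 ± 205, 271 ± 82.3 and 264 ± 29.8 CPM (SD, n = 2). The ranges of mean ± SD of neighbours in this order overlapped. The lowest mean was that of Tnni1, at 19 ± 23.2 CPM.

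Over the family, 8 of the 10 genes were at least 2-fold higher in replicate 1 (pseudocount 0.5 reads), 0 were at least 2-fold higher in replicate 2, and Tpm3 and Tpm4 lay within 2-fold. Of all 10567 genes with 10 or more reads summed over the libraries, 9.45% were at least 2-fold higher in replicate 1 and 4.09% at least 2-fold higher in replicate 2 (13.5% in either direction). The median log2 ratio was 1.51 over the 10 genes and 0.04 over the 10567. With TMM factors Tnni2 came to a log2 ratio of 0.98, and with median-of-ratios factors Tnni2 came to 0.95 and Tpm1 to 0.99, just under 2-fold. The genes were chosen with these counts in view, so nothing is read from the difference between 8 of 10 and the background. In a tissue sample, more cells of a type and more RNA in each such cell cannot be told apart. The labels name adrenal gland tissue only, and whether such cells were part of the gland was not tested.

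The reads of tropomyosin genes were then divided by the last exon in which they ended, since the upstream last exon of Tpm1, Tpm2 and Tpm3 belongs to the form of striated muscle. Summed over the 4 genes, striated muscle ends had 813 reads (1371 CPM) in replicate 1 and 405 reads (525 CPM) in replicate 2, 2.61-fold higher in replicate 1 (2.32 to 2.95). All other ends had 284 reads (479 CPM) in replicate 1 and 402 reads (521 CPM) in replicate 2, a ratio of 0.92 (0.787 to 1.07). Striated ends were thus 74.1% (71.4 to 76.7) of the reads with a known end in replicate 1 and 50.2% (46.7 to 53.7) in replicate 2. In each of the 3 genes that have both kinds, the interval of the ratio lay above 1 for the striated end and included 1 for the other ends. The difference between the 2 ratios was not tested.

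**Figure D2:**
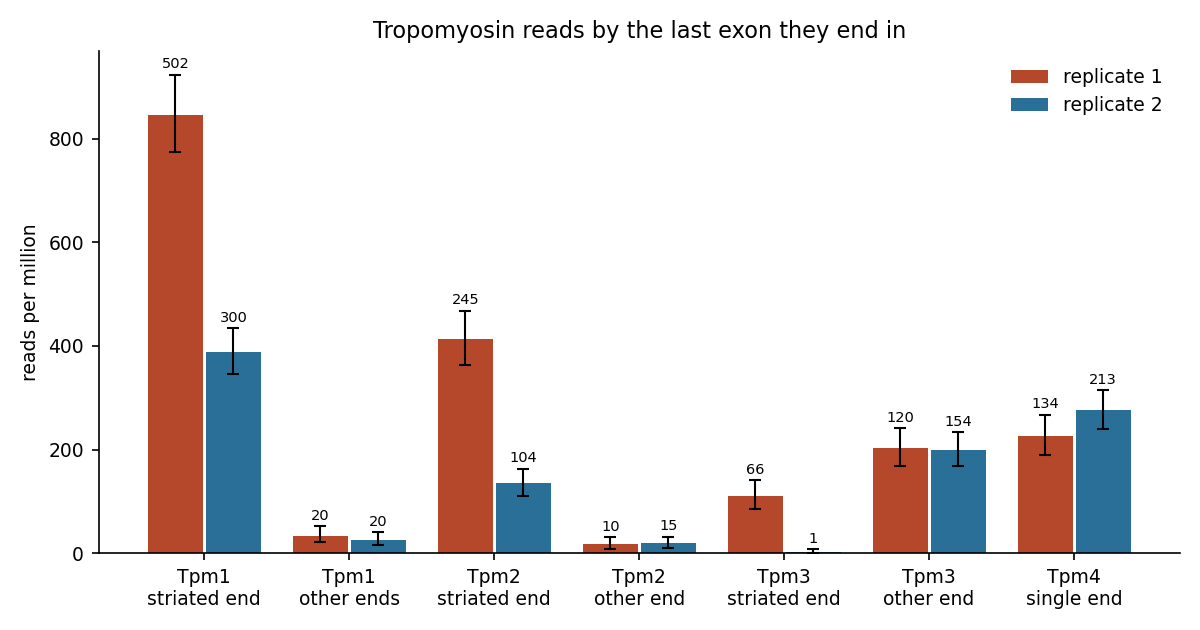
Tropomyosin reads by the last exon of their transcript model, in CPM, replicate 1 left of replicate 2, with exact 95% counting intervals and read numbers above the bars. The striated ends of Tpm1, Tpm2 and Tpm3 are higher in replicate 1, while the other ends and Tpm4 have intervals that overlap.

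In Tpm1 the striated form dominated both libraries. The combination of the upstream first exon, exon 2b, exon 6b and the upstream last exon was carried by 468 reads in replicate 1 and 285 in replicate 2, and the annotated transcript with it, Tpm1-205 (10 exons, 284 codons), held 86.7% (83.6 to 89.5) of Tpm1 reads in replicate 1 and 85.7% (81.4 to 89.3) in replicate 2. Exon 2a, which marks the smooth muscle form, was in 2 of 480 covering reads in replicate 1 and 6 of 292 in replicate 2. The downstream first exon, which starts the shorter forms of non-muscle cells, was used by 11 of 489 reads (2.25%) in replicate 1 and 15 of 309 (4.85%) in replicate 2. Exon 6a was in 3 of 514 covering reads in replicate 1 and 3 of 318 in replicate 2, of which 3 and 1 held exon 6b as well. In CPM, the striated end stood at 846 and 389 CPM in replicates 1 and 2 (ratio 2.18, 1.88 to 2.52), and the downstream ends at 33.7 and 25.9 CPM (1.3, 0.665 to 2.55).

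Tpm2 gave the same kind of picture with fewer reads. Exon 6b with the upstream last exon, the striated pairing, was carried by 244 reads in replicate 1 and 103 in replicate 2, and exon 6a with the downstream last exon, the pairing of smooth muscle and other cells, by 8 reads in replicate 1 and 9 in replicate 2. A crossed pairing, exon 6b with the downstream last exon, had 1 read in replicate 1 and 4 in replicate 2. Exon 6a was in 3.16% (1.37 to 6.14) of covering reads in replicate 1 and 8.55% (4.17 to 15.2) in replicate 2, and the downstream last exon ended 10 of 255 reads (3.92%, 1.9 to 7.09) in replicate 1 and 15 of 119 (12.6%, 7.23 to 19.9) in replicate 2. The intervals overlap for exon 6a and just miss each other for the last exon. The downstream end stood at 16.9 CPM in replicate 1 and 19.4 CPM in replicate 2 (ratio 0.868, 0.349 to 2.06), while the striated end reached 413 CPM in replicate 1 against 135 CPM in replicate 2 (ratio 3.07, 2.43 to 3.9). The annotated transcripts of both pairings have 284 codons.

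Of the 3 tropomyosin genes with such choices, Tpm3 had the largest differences in exon shares. The gene has an upstream start for the slow striated muscle form and a downstream start for the short forms that nearly all cells make. The upstream first exon was used by 67 of 183 reads (36.6%, 29.6 to 44) in replicate 1 and 1 of 152 (0.658%, 0.0167 to 3.61) in replicate 2. The upstream last exon, which ends the striated form, was used by 66 of 186 reads (35.5%) in replicate 1 and 1 of 155 (0.645%) in replicate 2. Exon 6b was in 78 of 184 covering reads (42.4%, 35.2 to 49.9) in replicate 1 and 9 of 155 (5.81%, 2.69 to 10.7) in replicate 2, and exon 6a in 107 (58.2%) in replicate 1 and 146 (94.2%) in replicate 2. All 3 exons were thus more frequent in replicate 1, and exon 6b was also carried by reads that were not of the striated form.

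The choices went together on single molecules, which long reads show directly. The upstream start, exon 6b and the upstream end were joined on 65 reads in replicate 1 and 1 read in replicate 2, and 60 and 1 of these were the annotated Tpm3-205 (10 exons, 284 codons). The downstream start, exon 6a and the downstream end with a next-to-last exon of 70 bases were joined on 84 reads in replicate 1 and 139 in replicate 2, nearly all of them Tpm3-201 (8 exons, 248 codons). Mixed forms made up the rest. An unannotated combination of annotated splice sites with the downstream start, exon 6a and, before the downstream end, the 79-base exon that Tpm3-205 also carries had 17 reads in replicate 1 and 4 in replicate 2. Another, with exon 6b between the downstream start and end, had 11 reads in replicate 1 and 7 in replicate 2. Only 1 read, in replicate 1, ran from the upstream start to the downstream end, and none ran from the downstream start to the upstream end in either library.

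**Figure D3:**
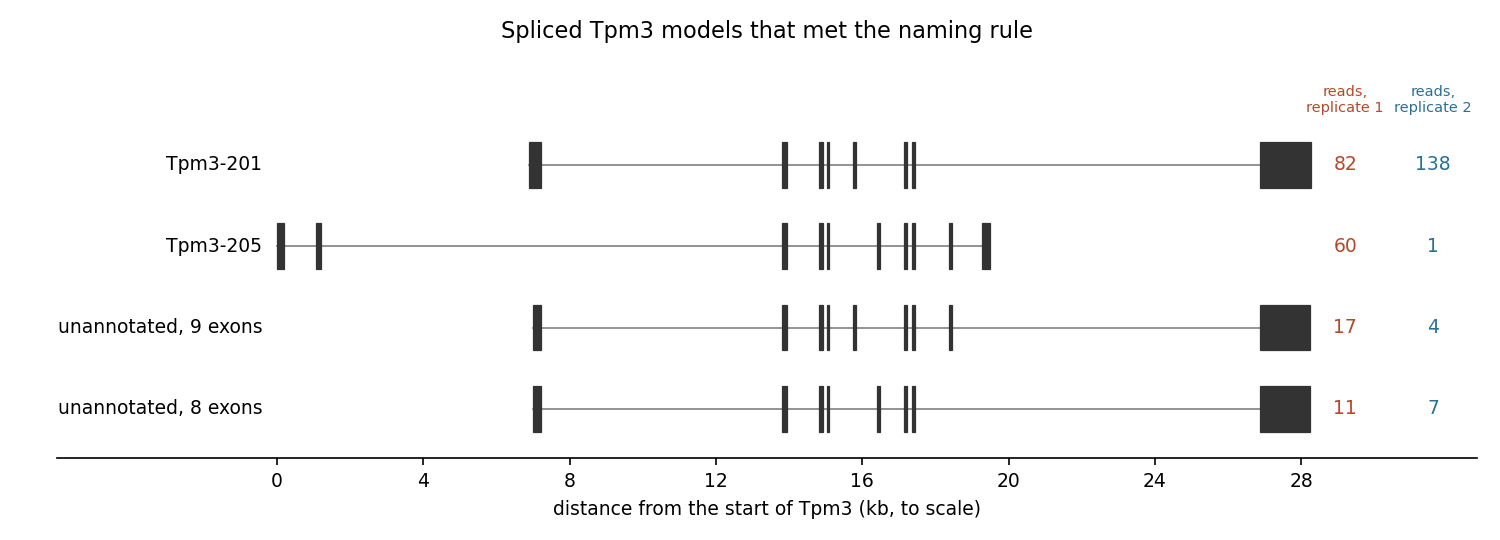
Spliced Tpm3 transcript models that met the naming rule, drawn to scale by distance from the start of the gene in kb, with exons as boxes and introns as lines, and the reads of each model in replicate 1 (left number) and replicate 2 (right number). Tpm3-205, which starts and ends upstream, has 60 reads in replicate 1 and 1 read in replicate 2, and Tpm3-201 has 82 reads in replicate 1 and 138 in replicate 2.

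In CPM, the 2 starts of Tpm3 were far apart between the libraries in 1 case and equal in the other. The upstream start gave 113 CPM in replicate 1 against 1.3 CPM in replicate 2, and with 1 read in replicate 2 the ratio of 87.2 has an interval of 15.1 to 3496. The downstream starts had 116 reads in replicate 1 and 151 in replicate 2, which is 196 CPM in both libraries (ratio 1, 0.778 to 1.28). The 1.55-fold higher level of the whole gene in replicate 1 thus lay in the upstream reads. A processed copy of the gene without introns, Tpm3-rs7 (chr14:113314608-113316754, plus strand), had 48 reads (80.9 CPM) in replicate 1 and 67 reads (86.8 CPM) in replicate 2, and how reads were divided between Tpm3 and this copy is not given in the sources used here. With its reads added, the downstream end of Tpm3 came to 283 CPM in replicate 1 and 286 CPM in replicate 2, against 202 CPM in replicate 1 and 199 CPM in replicate 2 without them. The reads of Tpm3 are uncertain to that extent.

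The annotated promoters of both starts are shown because the starts differed so much between the libraries. They run from 250 bases before to 50 bases after the start (RefSeq, GRCm38.p6, plus strand) and lie at chr3:90072401-90072700 and chr3:90079271-90079570. Both strands were searched for the E-box CANNTG, which binds helix-loop-helix factors, among them those of muscle. Capitals mark its matches.
Tpm3 upstream promoter: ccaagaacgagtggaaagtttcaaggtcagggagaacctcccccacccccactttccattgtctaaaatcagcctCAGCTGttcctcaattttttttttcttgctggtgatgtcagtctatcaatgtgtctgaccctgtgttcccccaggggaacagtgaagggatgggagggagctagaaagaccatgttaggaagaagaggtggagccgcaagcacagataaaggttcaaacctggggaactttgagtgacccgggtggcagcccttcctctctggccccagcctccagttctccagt
Tpm3 downstream promoter: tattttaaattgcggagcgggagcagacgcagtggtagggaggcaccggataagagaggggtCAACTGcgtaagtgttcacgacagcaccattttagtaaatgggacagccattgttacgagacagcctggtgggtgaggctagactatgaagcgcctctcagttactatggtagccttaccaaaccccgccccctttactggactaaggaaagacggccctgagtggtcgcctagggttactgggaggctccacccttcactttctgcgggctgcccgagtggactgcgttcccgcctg
Each promoter held 1 E-box match, as did 72.3% of the 32851 annotated promoters of this length, which had 1 or more. Neither held the TATA box, spelled TATAAA, on either strand, which 13.6% of them held. The matches describe letters in these windows only.

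The share of a gene's main transcript was not itself used to choose the genes and was tested, replicate 1 against replicate 2, with Fisher's exact test (two-sided) in every gene with at least 50 reads in each library. The shares come from the same reads as the gene counts known at the choice, so the test is not fully independent of it. Tpm3-201 was 82 of 195 Tpm3 reads (42.1%, 35 to 49.3) in replicate 1 and 138 of 164 (84.1%, 77.6 to 89.4) in replicate 2, a difference of -42.1 percentage points (Benjamini-Hochberg adjusted p = 6.6e-14 over 2162 genes). Of the 6 genes of the family that could be tested 1 was called, at an adjusted p below 0.05 and at least 10 points, against 39 of all 2162 genes (1.8%). By the size of the difference Tpm3 stood at rank 1 of the 2162 genes, and by p at rank 3. The other 5 did not pass: Tpm4-201 had 86.8% in replicate 1 and 95.5% in replicate 2 (adjusted p = 0.091), the main Tnni2 model 69.2% and 79.3% in replicates 1 and 2 (0.53), and the differences were -1.28, 1.06 and 2.48 points for Tnnc2, Tpm1 and Tpm2 (adjusted p 0.8 to 0.96). Tnnc1, Tnni1, Tnnt1 and Tnnt3 had too few reads. The test compares the reads of 2 libraries, not 2 conditions. Counting every Tpm3-rs7 read as Tpm3-201, a step added after the data were seen, left a difference of -35.2 points (unadjusted p = 8.8e-18, Fisher's exact test).

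**Figure D4:**
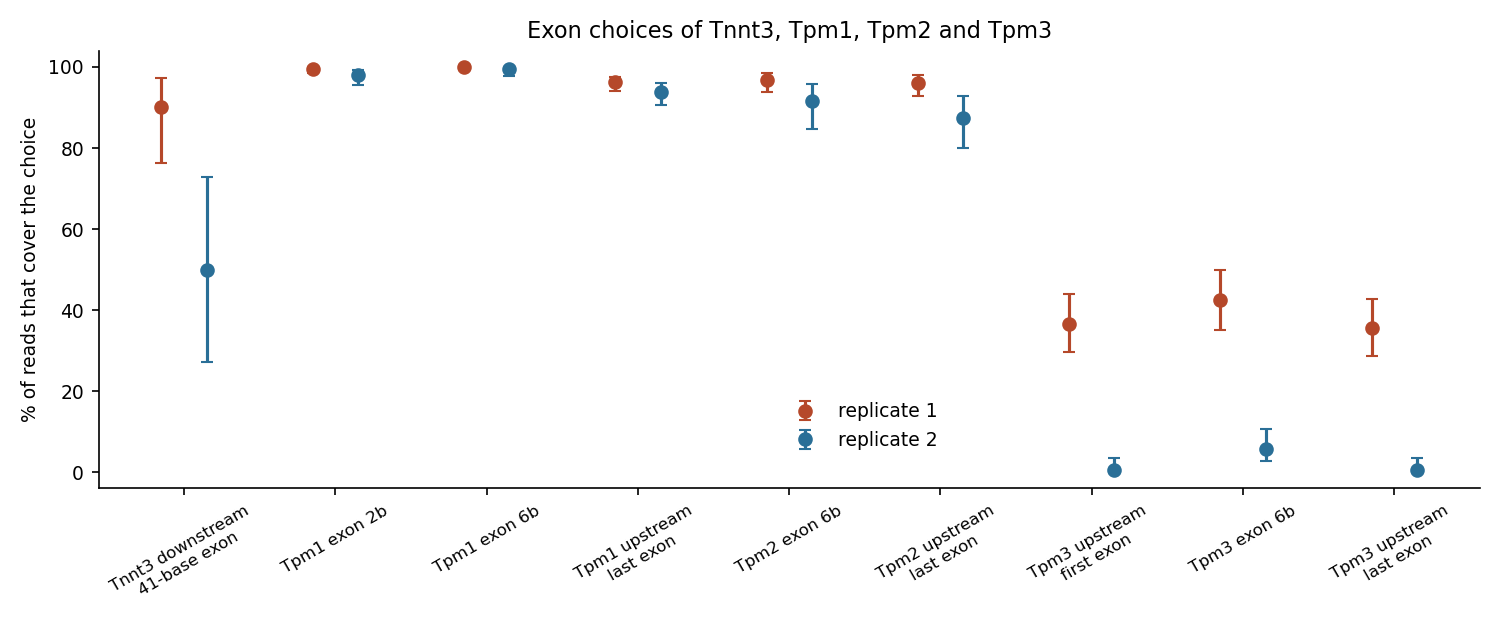
Share of the reads covering a choice that held the named exon, in percent, for 9 exons of Tnnt3, Tpm1, Tpm2 and Tpm3, replicate 1 left of replicate 2, with Clopper-Pearson 95% intervals. The 3 exons that the striated Tpm3 form carries lie at 35.5 to 42.4% in replicate 1 and 0.645 to 5.81% in replicate 2, and the Tnnt3 exon at 90% in replicate 1 and 50% in replicate 2.

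Fast troponin T also differed between the libraries in its exon choice, on few reads. Of its 41-base exons the downstream one is known as the fetal and neonatal choice and the upstream one as the choice of adult muscle. The downstream exon was in 36 of 40 covering reads (90%, 76.3 to 97.2) in replicate 1 and 10 of 20 (50%, 27.2 to 72.8) in replicate 2, and the upstream exon in 4 (10%) and 10 (50%) in replicates 1 and 2. The intervals do not overlap, but they do once incomplete models are left out: the downstream exon was then in 20 of 23 reads (87%, 66.4 to 97.2) in replicate 1 and 7 of 12 (58.3%, 27.7 to 84.8) in replicate 2. Annotated Tnnt3 transcripts are many (27), and 0 reads in either library matched one in full. The most frequent spliced model, an unannotated one of 10 exons, was carried by 14 reads in replicate 1 and 4 in replicate 2.

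The troponin I and T genes shared a feature of their models that the counts do not show. Their annotated coding transcripts hold very short exons, printed here in capitals between the coding bases of the exons on either side (up to 12 bases a side), to show what the read models lacked.
Tnni1 exon of 4 bases (chr1:135803282-135803285): atgccggaagtTGAGaggaaatccaag
Tnni2 exon of 7 bases (chr7:142442691-142442697): atgggagaTGAGGAGaagcgcaacagg
Tnnt1 exon of 14 bases (chr7:4514213-4514226): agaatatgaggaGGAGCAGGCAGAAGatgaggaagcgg
Tnnt3 exon of 14 bases (chr7:142501829-142501842): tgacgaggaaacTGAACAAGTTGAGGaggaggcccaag
Every annotated coding transcript that spans these exons holds them, and none of the reads did. The Tnni1 exon was in 0 of 21 spanning reads in replicate 1 and 0 of 2 in replicate 2, the Tnni2 exon in 0 of 109 and 0 of 75, the Tnnt1 exon in 0 of 12 and 0 of 2, and the Tnnt3 exon in 0 of 22 and 0 of 13. In all of these reads the bases of the exon lay inside an intron of the model. The main models of Tnni2 (7 exons, 90 and 65 reads in replicates 1 and 2) and of Tnni1 (9 exons, 19 and 1 reads), which lack them, are classed as unannotated combinations of annotated splice sites. None of these exon lengths is a multiple of 3.

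The lack was not particular to these genes. Over all genes, 11 of 11 annotated constant coding-transcript exons of 1 to 10 bases with at least 10 spanning reads were in no read, as were 17 of 40 (42.5%) of 11 to 20 bases, 9 of 354 (2.54%) of 21 to 30 bases and 4 of 2396 (0.167%) of 31 to 50 bases. In the troponin genes themselves exons of 21 to 30 bases were found: a 30-base exon of Tnni1 in 21 of 21 and 2 of 2 spanning reads, one of 30 bases in Tnni2 in 93 of 97 and 67 of 68, and one of 27 bases in Tnnt1 in 11 of 12 and 2 of 2 (replicates 1 and 2). Of 9 annotated Tnnt3 exons of 8 to 19 bases, most of them alternative exons of the variable front part of troponin T, 2 were in any read. A 35-base constant exon of Tnnt3 was in 0 of 22 and 0 of 13 reads, each of which had an exon with other boundaries there. Whether the bases were missing from the RNA or were lost when reads were aligned was not tested, because the models and not the reads were used. Splice forms of troponin I and T that differ by exons of 20 or fewer bases could not be read reliably from these data. For exons of 11 to 20 bases the lack over all genes was partial.

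**Figure D5:**
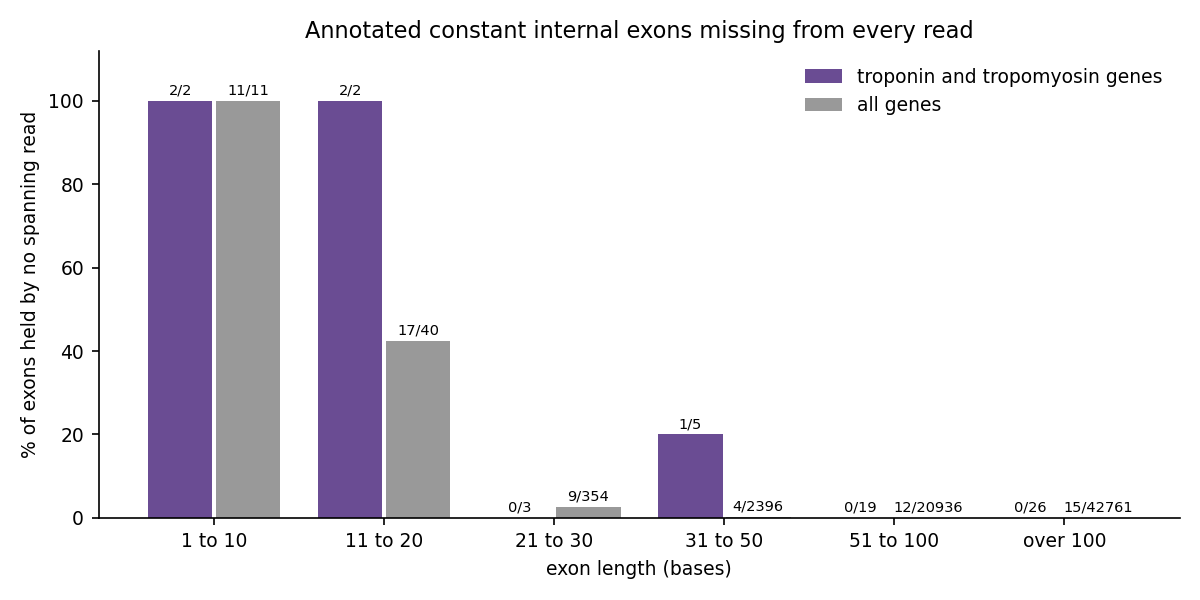
Share of annotated constant internal exons of coding transcripts that no spanning read holds, in percent, by exon length in bases, for the troponin and tropomyosin genes (left bars) and all genes (right bars), with numbers of exons above the bars. Of exons of 1 to 10 bases 2 of 2 and 11 of 11 are missing, and of exons over 50 bases none in these genes.

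Most reads of the family, summed over the 10 genes, followed annotated transcripts. Known transcripts held 78.8% of its reads in replicate 1 and 84.6% in replicate 2, beside 65.9% and 71.8% of all reads in replicates 1 and 2. In Tnni1, Tnni2, Tnnt1 and Tnnt3 they held only 0, 6, 1 and 0 reads in replicate 1 and 0 in replicate 2. Incomplete matches, which lack part of an annotated chain of exons, held 10.3% of the family's reads in replicate 1 and 5.22% in replicate 2. Of all reads they held 12.6% in replicate 1 and 11.2% in replicate 2. Tnnt1 was the extreme: 1 incomplete model of 3 exons at the end of the gene held 74 of its 94 reads in replicate 1 and 7 of its 10 in replicate 2, and 1 read, in replicate 1, matched an annotated transcript. Spliced models found in both libraries held 903 of the 937 Tnnc2 reads, 500 of the 535 Tpm1 reads and 21 of the 58 Tnnt3 reads in replicate 1. By number, 3 of 13 spliced models of Tnnc2, 12 of 33 of Tpm1 and 4 of 24 of Tnnt3 were in both.

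Other proteins of the thin filament were taken from a list of 24 genes. Of these, 23 had reads and 13 had 10 or more reads summed. Of the 13, 4 were at least 2-fold higher in replicate 1, 1 in replicate 2, and 8 were within 2-fold, with a median log2 ratio of 0.17. Beside this list and the marker lists below, 9.45% of all 10567 tested genes were at least 2-fold higher in replicate 1. The share higher in replicate 2 was 4.09%. Acta1, the actin of skeletal muscle, had 2911 reads (4908 CPM) in replicate 1 and 975 reads (1263 CPM) in replicate 2, a ratio of 3.89 (3.61 to 4.18). Neb, the giant ruler of the filament, had 14 reads in replicate 1 against 0 in replicate 2, and Tmod4, a cap of the pointed end in skeletal muscle, had 13 reads in replicate 1 and 3 in replicate 2. Tmod1 gave 10 reads in replicate 1 and 6 in replicate 2, and Actc1, the actin of heart and developing muscle, 5 in replicate 1 and 15 in replicate 2, both with intervals that include equal levels. The 8 within 2-fold were Acta2, Tmod3, Capza1, Capza2, Capzb, Cald1, Cnn2 and Cnn3, which cells outside striated muscle also make. The heart troponins I and T were at or near 0: Tnni3 had 0 reads in both libraries, and Tnnt2 had 1 read in replicate 1 and 0 in replicate 2.

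The summed levels of slow, fast and developing muscle markers were higher in replicate 1, as those of the troponins and striated tropomyosins were, but single fast markers went both ways, and their part in the result was not tested. Of 10 fast muscle markers all were detected, 4 were at least 2-fold higher in replicate 1, 1 in replicate 2 and 5 within 2-fold, and the list summed to 7367 CPM in replicate 1 and 3479 CPM in replicate 2. Atp2a1, the calcium pump of fast fibres, gave 1444 reads in replicate 1 against 864 in replicate 2, and the fast myosins differed in kind, with Myh1 at 510 reads in replicate 1 and 47 in replicate 2 and Myh4 at 5 reads in replicate 1 and 147 in replicate 2. Mybpc2, the fast myosin-binding protein, was lower in replicate 1 (30 reads, against 63 in replicate 2, ratio 0.62, 0.387 to 0.972), and the calcium buffer Pvalb had 22 reads there and 36 in replicate 2 (ratio 0.796, 0.446 to 1.39). Of 7 slow muscle markers 4 of the 5 with enough reads were higher in replicate 1, and the list summed to 644 CPM in replicate 1 and 133 CPM in replicate 2. The fifth, Atp2a2, was within 2-fold, with 88 reads in replicate 1 and 91 in replicate 2. It held 91 of the 103 reads of the list in replicate 2. The slow myosin Myh7 had 76 reads in replicate 1 against 0 in replicate 2, and 4 of the 7 slow markers were at 0 in replicate 2. Markers of developing muscle summed to 199 CPM in replicate 1 and 19.4 CPM in replicate 2, with 83 reads of the perinatal myosin Myh8 in replicate 1 against 6 in replicate 2. Heart markers were absent but for Myl4, which developing muscle also makes (11 reads in replicate 1 and 3 in replicate 2), and Tnnt2 as above: Myh6, Myl7, Nppa, Nppb, Tnni3 and Mybpc3 were at 0 in both libraries.

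Smooth muscle markers did not follow them as a list: 3 of 4 tested genes were within 2-fold. Among these, Acta2 had 23 reads in replicate 1 and 39 in replicate 2. Tagln, with 7 reads in replicate 1 and 19 in replicate 2, was within 2-fold only with the pseudocount. Without it Tagln was 2.09-fold higher in replicate 2, with an interval that includes equal levels. The fourth, Des, which skeletal muscle also makes, had 269 reads in replicate 1 and 80 in replicate 2. All tested genes of the fibroblast (5), brown fat (4), chromaffin (5) and erythrocyte (4) lists were within 2-fold. So were most genes: of all 10567 tested, 13.5% were past 2-fold in either direction. The 5 tested fibroblast genes were each 1.29 to 1.49-fold higher in replicate 1, and their list summed to 4318 CPM in replicate 1 against 3016 CPM in replicate 2. Brown fat genes summed to 8809 CPM in replicate 1 and 13471 CPM in replicate 2.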

How the data were processed

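Whole long reads were measured per transcript model in 2 libraries of 1 group. The authors deposited, for each library, counts of whole reads per model with no normalization (models with at least 1 read) and an annotation with the exons of each model. Per the notes deposited with the files, reads were placed on mm10 with gene models of GENCODE M21, and attributes in the deposited annotation name TALON. For the aligner, tool versions and filters: not given in the sources used here. Number of exons per model was taken from the deposited tables.

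Counts were summed per gene, and ERCC reads (2.23 and 2.09% in replicates 1 and 2) were left out. A spliced model counted as present in both libraries where all introns were identical. An exclusive pair was 2 annotated internal exons between the same splice sites with at most 5% of covering reads holding both. This limit, the study of short exons and the reading of tropomyosin ends were set after the data were seen, and the genes and lists were chosen with earlier results of these data known. All 10 genes are named. Models could be named with at least 5% of a gene's reads or at least 10 reads in a library. Exons of a choice could be named with a read on both sides. Not all models and exons that met these rules are described.

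Shares have Clopper-Pearson intervals and ratios exact conditional intervals. Main transcripts were compared with Fisher's exact test and Benjamini-Hochberg adjustment. In simulated data for this test 99% of genes with a difference of 40 points and 64% of those with 20 points were called, and 3 of 1962 unchanged genes. The simulated libraries differed by counting error only. These rates therefore do not show how often genes are called through other variation between libraries. Alternatives were other reads, totals, scalings and minimums, each replicate left out, and Tpm3-rs7 reads added. Python 3.11.15, scipy 1.17.1, pandas 2.3.3 and, for scaling factors, edgeR 4.0.16 in R 4.3.3 were used. Exon sequences were cut from GENCODE M21 transcripts.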

Additional observations from a re-analysis of the deposited data

Results flagged for a closer look

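Antisense reads appeared over Tpm3 and Tpm1, in models outside the counts of both genes, above the 3 reads that a count of 0 allows in each library. Over Tpm3 there were 39 such reads, 17 in replicate 1 and 22 in replicate 2, each library in 1 unspliced model on the minus strand (chr3:90088061-90089123 in replicate 1 and chr3:90088061-90088569 in replicate 2). Both models cover exon 6a, and that of replicate 1 starts, on the minus strand, opposite the last base of exon 6b. Over Tpm1 there were 26, with 16 in replicate 1 and 10 in replicate 2, of which 15 and 6 were in 1 unspliced model on the plus strand (chr9:67023282-67026826) over the downstream end of the gene. Over Tnnt1, Tnni1, Tnnt3 and Tpm2 there were 1 or 2 antisense reads in replicate 1 and 0 in replicate 2.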

How the results depend on the processing

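Of 177 values recomputed under alternatives other than leaving out a replicate, 167 were kept, 10 were not and 0 were reversed. A value was kept if it stayed on its side of the threshold or moved by less than its spread or interval. A count of genes was also kept after a small change: the 8 genes higher in replicate 1 became 7 with TMM factors. That count was 6 with median-of-ratios factors and 6 with at least 50 reads summed. Reversal was judged only for results past the threshold. With 2 libraries, a mean without 1 of them always lies within 1 SD of the mean of both, so the 50 values of that kind say nothing about stability. With annotated models only, 4 of the 6 genes left for comparison, in place of 8 of 10, were at least 2-fold higher in replicate 1: Tnni1, Tnni2, Tnnt1 and Tnnt3 fell below the minimum of 10 reads, since nearly all of their reads are in unannotated or incomplete models. Under the same alternative exon 6a of Tpm3 was in 98.6% of covering reads in replicate 2. TMM and median-of-ratios factors moved the median log2 ratio of all genes to -0.02 and -0.05. The summed level was 1786 to 4081 CPM with 1 of the replicates left out. With Tpm3-rs7 reads added, an alternative chosen after seeing the data, the log2 ratio of Tpm3 was 0.45. No paired analysis was possible because the labels give 1 group. Depth limits the slow troponins and Tnnt3 most, with 0 to 24 reads in replicate 2.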
